A study of Homo sapiens with 20 samples.

Results

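K562 cells, an erythroleukemia line that carries the BCR-ABL1 fusion, were compared after 72 h in X5050 plus GSK343 and after 72 h in X5050 alone, so that the difference reads what the EZH2 inhibitor changed in cells already given X5050. The comparison was chosen by treatment label and uses 4 of the 20 RNA-seq libraries of the series, 2 per group, and the 19224 genes that passed the filter on low counts. Both groups received 100 µM X5050 for 72 h, and the combined group also received 5 µM GSK343 for the same 72 h. A second pair of groups, 5 µM GSK343 alone and DMSO, each for 72 h with 2 libraries, shows the GSK343 response without X5050 and shares no library with the first pair. All libraries were stranded total RNA from 1 cell line with ribosomal RNA removed. The submitters call the 2 libraries of each group biological replicates. The spread behind the p-values was estimated over all 12 libraries of the drug experiment. These also include both drugs at the same doses for 8 h and 24 h. The p-values measure only spread between libraries.

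EZH2 is the catalytic subunit of Polycomb repressive complex 2, which places the repressive mark H3K27me3, and GSK343 blocks its enzyme activity. REST is a zinc finger repressor that keeps neuronal genes off outside neurons, and X5050 was described as lowering REST protein. In K562 cells the GATA1 and TAL1 program sustains fetal and embryonic globin transcription, while metal, inflammatory and amino acid stress programs are inducible.

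Metallothioneins, small cysteine-rich proteins that bind zinc and copper, and NF-kB response genes are among the lists in which most tested members rose. The upstream 250 bases of 3 genes of each group are shown with the matched letters in capitals. These genes were picked by hand, and each window shown holds its motif. The windows of MTF1 and SLC30A10 hold no metal response element core, and those of TNFAIP2, NFKB2, TNF and ICAM1 no kappa B motif. The sequences are RefSeq promoter windows of build GRCh38.p14, written 5′ to 3′ on the gene's strand. Capitals in the first group mark a metal response element core (TGCACNC or TGCGCNC, either strand) and in the second a kappa B motif (10 bases, either strand).
MT2A: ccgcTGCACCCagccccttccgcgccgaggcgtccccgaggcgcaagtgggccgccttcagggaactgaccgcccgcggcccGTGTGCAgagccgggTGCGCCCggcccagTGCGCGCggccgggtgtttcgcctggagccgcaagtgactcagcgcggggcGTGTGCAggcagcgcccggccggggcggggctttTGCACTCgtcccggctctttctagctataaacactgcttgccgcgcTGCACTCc
MT1X: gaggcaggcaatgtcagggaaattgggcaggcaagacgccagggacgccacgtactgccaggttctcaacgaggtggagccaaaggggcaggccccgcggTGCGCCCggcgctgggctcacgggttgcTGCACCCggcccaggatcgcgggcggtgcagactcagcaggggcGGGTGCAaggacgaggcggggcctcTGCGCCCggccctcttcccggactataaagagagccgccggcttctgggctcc
SLC30A1: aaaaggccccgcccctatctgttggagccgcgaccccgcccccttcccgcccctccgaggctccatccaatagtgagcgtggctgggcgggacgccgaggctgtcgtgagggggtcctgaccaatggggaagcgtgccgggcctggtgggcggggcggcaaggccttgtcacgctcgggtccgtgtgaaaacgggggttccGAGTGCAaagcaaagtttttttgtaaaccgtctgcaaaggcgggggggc
NFKBIA: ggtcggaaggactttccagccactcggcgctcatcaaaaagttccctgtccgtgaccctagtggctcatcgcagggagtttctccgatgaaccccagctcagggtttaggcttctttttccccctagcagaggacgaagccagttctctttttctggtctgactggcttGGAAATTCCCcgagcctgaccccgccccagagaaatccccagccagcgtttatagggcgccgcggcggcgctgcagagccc
TNFAIP3: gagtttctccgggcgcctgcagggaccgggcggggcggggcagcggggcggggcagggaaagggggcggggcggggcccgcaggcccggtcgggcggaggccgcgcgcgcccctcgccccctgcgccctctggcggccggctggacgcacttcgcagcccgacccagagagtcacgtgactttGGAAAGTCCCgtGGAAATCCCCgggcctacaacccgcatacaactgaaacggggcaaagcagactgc
BIRC3: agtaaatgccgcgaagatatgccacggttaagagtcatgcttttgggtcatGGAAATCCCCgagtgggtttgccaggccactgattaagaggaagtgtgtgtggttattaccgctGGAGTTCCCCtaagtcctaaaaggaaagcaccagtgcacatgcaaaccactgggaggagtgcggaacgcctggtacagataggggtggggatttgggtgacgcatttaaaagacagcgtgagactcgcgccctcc
The windows lie at chr16:56608334-56608583 on the plus strand for MT2A, chr16:56682220-56682469 on the plus strand for MT1X, and chr1:211579162-211579411 on the minus strand for SLC30A1. Those of the second group lie at chr14:35404750-35404999 on the minus strand for NFKBIA, chr6:137867009-137867258 on the plus strand for TNFAIP3, and chr11:102317234-102317483 on the plus strand for BIRC3. The MT2A window held 7 cores and the MT1X window 4, against 1 for the zinc exporter gene SLC30A1. At least 1 core was present in 5 of the 7 windows found for the metallothionein and zinc exporter list and at least 2 in 4 of them (57.1%), against 32.3% and 8.06% of the 11981 windows of tested genes and 24.7% and 5.61% of all 27305 windows. A kappa B motif was present in 11 of the 20 windows found for the NF-kB list (55%), against 5.71% of windows of tested genes, 7.65% of those of genes that rose and 5.05% of all windows. The letters of the 2 motifs shared no bases in the windows of either list. A match is a description of the letters, and binding was not measured here.

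Total counts in genes were 27806121 and 25185720 in the X5050 libraries and 22925617 and 27191050 in the combined libraries, within a range of 22925617 to 38177320 over the 12 drug-treated libraries. Reads mapping to several places made up 26.7% and 26.1% of the combined libraries, against 19.5% and 19.1% with X5050 and 19.0% to 20.8% with DMSO or GSK343, and their part in the results below was not tested. Replicates of every group differed from each other well beyond counting noise, with a chi-square per degree of freedom of 43.7 for the X5050 pair, 22.5 for the combined pair, 28.6 for GSK343 and 55.4 for DMSO. The same value was 17.2 and 10.8 for both drugs at 8 h and 24 h, lower than in the groups of 72 h. In the X5050 pair, globin and amino acid stress genes were among those that differed. The erythroid identity of the cells was read in all 4 libraries: summed erythroleukemia markers came to 3859 to 6925 CPM (counts of a gene per 1000000 counts of its library) with X5050 and 5660 to 6908 with both drugs. This sum includes the abundant globin HBG2. Of the 15 tested markers 1 rose (6.67%) and 4 fell (26.7%), against 17.5% and 12.8% of all tested genes. Summed lymphoid markers were 84.1 to 118 against 51.1 to 60.2, with 3 of 19 genes at 0 in all 4 libraries. Summed myeloid markers were 110 to 161 against 95.8 to 133, a sum carried mainly by FCGR2A, with 1 of 21 genes at 0 in all 4 libraries. Of the 13 tested myeloid markers 5 rose and 1 fell, with a median of 1.21, and 1 rose without X5050 replicate 1, 2 without combined replicate 2 and 3 without X5050 replicate 2. Summed fibroblast, endothelial and epithelial markers were 567 to 646 against 1156 to 1281, most of it in the keratins KRT8, KRT18 and KRT19. Of the 19 genes of that list 18 were matched, and 2 of these were at 0 in all 4 libraries. Of the 9 tested members of that list 6 rose (66.7%) and 1 fell (11.1%), with a median of 1.18. In bulk RNA, fewer cells of a type and less RNA per cell cannot be told apart.

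Adding GSK343 moved 3360 genes up (17.5% of those tested) and 2456 down (12.8%) at an adjusted p under 0.05 by edgeR's quasi-likelihood test. The median change of all genes was 0.06 on the log2 scale, and beyond 1 log2 unit 1866 genes rose and 309 fell. The balance of the 2 directions depended on the setting, with 2617 up and 2820 down by DESeq2 and 3008 up and 2860 down with its size factors, while rises still outnumbered falls beyond 1 log2 unit, at 1395 to 343 and 1728 to 383. Without combined replicate 1, 2250 rose and 1347 fell, without X5050 replicate 1, 2106 rose and 2159 fell, and without X5050 replicate 2, 2202 rose and 2705 fell. Many of the risers came from low levels: 993 of the 3360 had a mean under 1 CPM with X5050, and 182 had at most 3 counts over both X5050 libraries.

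The transcripts of the 2 drug targets did not pass the test. EZH2 read 130 and 121 CPM with X5050 and 108 and 111 with both drugs (log2 change -0.20 ± 0.13 SE, adjusted p = 0.28), and REST read 74.6 and 79.3 against 69.3 and 69.5 (-0.15 ± 0.13, adjusted p = 0.43). These transcripts check neither enzyme activity nor protein. FGF18, a growth factor gene near the silencers that the series studied, read 0.102 and 0.0366 with X5050 and 1.45 and 0.954 with both drugs, a rise of 4.01 ± 0.70 (adjusted p = 0.000478) from a few counts per library. Of 8 tested genes in a list of FGF18 and its 5q35.1 neighbours 5 rose (62.5%) and 0 fell, against 17.5% and 12.8% of all tested genes. With GSK343 alone 4 of the 8 rose and 0 fell. Among the 5 that rose in X5050 was SH3PXD2B, an adaptor protein of podosomes, from 1.63 and 1.68 to 13.8 and 18.1 (3.27 ± 0.25, adjusted p = 2.68e-07). DUSP1, a MAP kinase phosphatase in the same list, went from 29 and 22.9 to 170 and 183 (2.76 ± 0.48, adjusted p = 0.0044).

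The largest rises belonged to genes nearly silent with X5050 alone. PSG9, a pregnancy-specific glycoprotein, had no count in either X5050 library and 6.13 and 1.98 CPM with both drugs, at least 74.2-fold higher if the X5050 pair is given 3 counts in all. FBN2, the microfibril protein fibrillin 2, had 2 counts over the X5050 libraries and 182 and 122 with both drugs, a ratio of 176 with a 95% counting interval of 48.4 to 1462. That interval holds counting error only and leaves out the spread between libraries. RASD1, a small Ras-related GTPase, rose from 0.136 and 0 to 10.7 and 8.47 (7.01 ± 0.55, adjusted p = 3.16e-07). SLC6A12, a betaine and GABA transporter, reached 4.86 and 4.39 from 0.0678 and 0.0731, and MMP1, an interstitial collagenase, reached 13.7 and 9.08 from 0.441 and 0.329. Among genes with a well measured starting level, ARC, a neuronal immediate early gene for a capsid-like protein, went from 4.31 and 2.71 to 149 and 140 (5.36 ± 0.23, adjusted p = 7.58e-10), and GADD45B, a stress-induced growth arrest gene, from 4.58 and 5.96 to 170 and 169 (5.01 ± 0.17, adjusted p = 5.34e-11). FHIP1A and 4 metallothioneins completed the 12 largest rises among coding genes of at least 2 CPM.

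**Figure D1:**
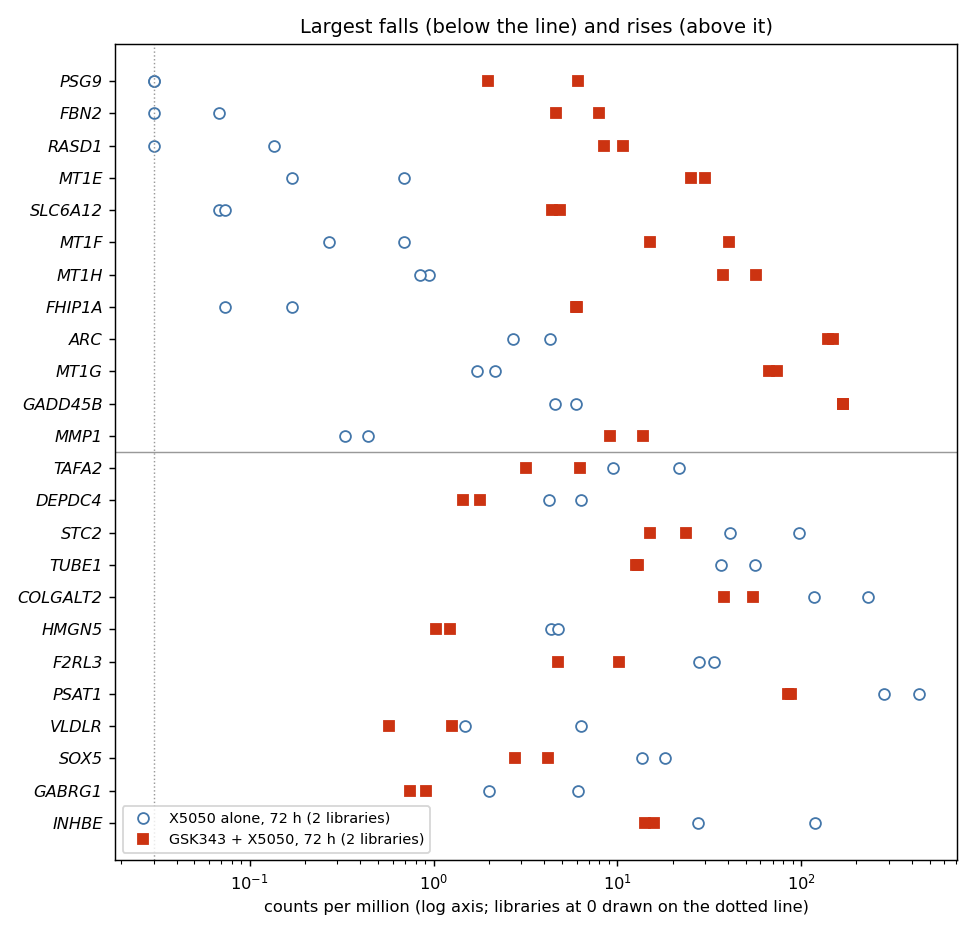
CPM on a log axis for the 12 largest falls (lower part) and 12 largest rises (upper part), with open circles for the 2 libraries given X5050 alone and filled squares for the 2 given both drugs. The groups do not overlap for any of the 24 genes, a condition of their choice, and the combined libraries of ARC (149 and 140) stand far from those of X5050 (4.31 and 2.71).

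The falls were smaller. PSAT1, the aminotransferase of serine synthesis, read 284 and 439 with X5050 and 84.4 and 87.9 with both drugs (-2.07 ± 0.16, adjusted p = 3.75e-07). SOX5, a transcription factor of the SOX family, read 13.6 and 18.2 against 2.76 and 4.20 (-2.18 ± 0.22, adjusted p = 3.68e-06), and F2RL3, the thrombin receptor PAR4, 33.8 and 27.7 against 4.73 and 10.3 (-2.03 ± 0.31, adjusted p = 0.00048). TUBE1, the centriolar epsilon tubulin, fell by 1.86, HMGN5, a nucleosome-binding protein, by 2.01, and COLGALT2, a collagen galactosyltransferase, by 1.90, each called without any single library. GABRG1, a GABA-A receptor subunit, fell by 2.27 and DEPDC4 by 1.70, also called in each such fit. The calls of 4 others rested on single libraries. INHBE, an activin subunit gene, read 27.4 and 119 with X5050 against 15.9 and 14.2 (-2.29 ± 0.66, adjusted p = 0.0412, and 0.17 without combined replicate 2). VLDLR, a lipoprotein receptor, read 1.49 and 6.36 against 0.570 and 1.26 (-2.07 ± 0.66, adjusted p = 0.0371, and 0.32 without X5050 replicate 2). The glycoprotein hormone gene STC2 (adjusted p = 0.00767) and the secreted factor TAFA2 (adjusted p = 0.0215) reached 0.056 and 0.12 without combined replicate 1.

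Metallothionein genes rose together. In the list of metallothioneins and zinc exporters 11 of 12 tested members rose and 1 fell, with a median change of 4.97 (5.10 with 3 members of at most 3 X5050 counts set at their counted ratio), against 0.06 for all genes. MT2A, the most abundant, went from 11.5 and 11.8 to 245 and 428 CPM (4.85 ± 0.27, adjusted p = 4.28e-07). MT1G went from 2.17 and 1.72 to 67.0 and 74.0 (5.17 ± 0.23, adjusted p = 7.58e-10), and MT1H from 0.949 and 0.841 to 37.8 and 57.1 (5.72 ± 0.30, adjusted p = 8.31e-09). MT1E (6.01 ± 0.41) and MT1F (5.86 ± 0.49) rose as steeply from under 1 CPM. SLC30A1, the plasma membrane zinc exporter, went from 68.7 and 48.7 to 512 and 816 (3.50 ± 0.36, adjusted p = 0.000165), whereas SLC30A10, a manganese exporter, read 24.8 and 21.8 against 14.6 and 9.88 (-0.93 ± 0.23, adjusted p = 0.00774, and 0.081 without combined replicate 2). MTF1, the zinc-sensing transcription factor of this system, read 25.6 and 23.7 against 38.3 and 34.0 (0.55 ± 0.12, adjusted p = 0.00301, and 0.059 without X5050 replicate 2). The MT1 genes are near-identical copies, so reads may be shared or lost among them and each copy's own value is uncertain. With GSK343 alone 0 of the 12 passed the test in either direction, with a median of 1.20, and the metallothioneins named above read at most 2.10 CPM there. The difference between the 2 effects was called for 3 of the 12, MT2A (3.65, adjusted p = 0.00235, and 0.0986 without DMSO replicate 2), SLC30A1 (4.02, adjusted p = 0.00102) and MTF1 (0.65, adjusted p = 0.0177, and 0.097 without GSK343 replicate 2), so for the other 9 a larger response in X5050 was not shown. MT2A read 0.661 and 0.760 with DMSO and 1.13 and 2.10 with GSK343.

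NF-kB response genes and chemokines rose in 22 of 24 tested members with a median of 2.42, and 20 to 21 members were called when any single library was left out. TNFRSF9, the costimulatory receptor 4-1BB, went from 4.75 and 3.80 to 37.4 and 41.1 (3.20 ± 0.17, adjusted p = 6.72e-09). TNFAIP2, a TNF-induced gene, went from 81.6 and 85.9 to 368 and 503 (2.38 ± 0.15, adjusted p = 3.24e-08), and RELB, an NF-kB subunit, from 10.8 and 11.1 to 62.9 and 86.8 (2.77 ± 0.22, adjusted p = 3.71e-07). The inhibitor NFKBIE rose by 1.57 ± 0.14 (adjusted p = 9.42e-07). Of genes picked after their values were seen, NFKBIA, the inhibitor I-kappa-B alpha, went from 44.5 and 51.5 to 199 and 336 (2.48 ± 0.26), and TNFAIP3, the ubiquitin-editing feedback inhibitor A20, from 56.1 and 87.3 to 366 and 599 (2.75 ± 0.36). The neutrophil chemokine CXCL8 went from 51.2 and 41.9 to 200 and 333 (2.52 ± 0.20), and the chemokine receptor CCR7 from 0.576 and 0.329 to 11.4 and 7.36 (4.35 ± 0.38). The 2 members that did not pass were CXCL3 (0.64 ± 0.30, adjusted p = 0.13) and IL6 (0.28 ± 0.44, adjusted p = 0.68). The anti-apoptotic NF-kB target BIRC3 read 2.65 and 4.61 against 12.2 and 14.5 (1.88 ± 0.25, adjusted p = 4.92e-05).

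Immediate early factors rose in 15 of 18 tested members (83.3%), with a median of 1.84 and 0 falls, against 17.5% and 12.8% of all tested genes. With GSK343 alone 12 of the 18 rose and 0 fell. The GSK343 effect was more positive in X5050 for 4 of them and more negative for 5. NR4A1, an orphan nuclear receptor, went from 16.3 and 11.1 to 117 and 135 (3.20 ± 0.16, adjusted p = 3.02e-09), and FOSB, an AP-1 subunit, from 6.71 and 5.56 to 74.5 and 62.8 (3.48 ± 0.19, adjusted p = 6.7e-09). FOSL2 and JUNB, also AP-1 subunits, each rose by 1.84, with standard errors of 0.19 and 0.18. EGR1, IER2 and MYC did not pass (0.71 ± 0.33, -0.02 ± 0.14 and -0.01 ± 0.17). The AP-1 letters TGANTCA, on either strand, were found in 5.86% of the 2234 windows of genes that rose and 2.95% of the 1898 of genes that fell, against 4.17% of the 11981 windows of tested genes and 6.60% of all windows. Beyond 1 log2 unit the shares were 8.25% of 1091 windows and 1.72% of 174, and 0 of the 12 windows found for the immediate early list held these letters. Of 15 Kruppel-like factors 9 rose and 0 fell. KLF6, a stress-induced member, went from 130 and 141 to 684 and 784 (2.44 ± 0.16, adjusted p = 8.66e-08), and KLF10, a TGF-beta-induced member, from 39.8 and 41.2 to 219 and 152 (2.20 ± 0.18, adjusted p = 7.67e-07).

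**Figure D2:**
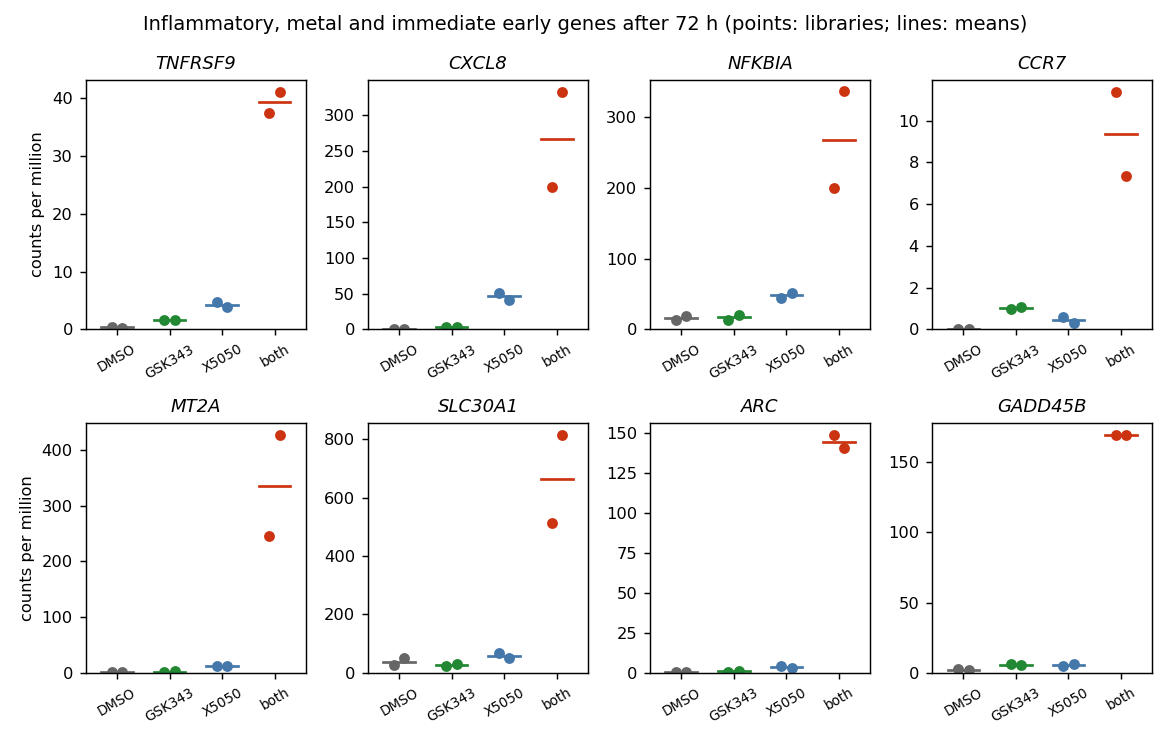
CPM, on linear axes from 0, for 8 genes in DMSO, GSK343, X5050 and both drugs after 72 h (points, libraries; lines, means of 2). In each of the 8 panels both combined libraries lie above every other library, as for TNFRSF9, at 37.4 and 41.1 against 4.75 and 3.80 with X5050 alone.

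Arrest genes rose while replication and mitosis genes fell, where 17.5% of all tested genes rose and 12.8% fell. With GSK343 alone 18 of 40 mitosis and spindle genes also fell and 0 rose. For that list the GSK343 effect was more positive in X5050 for 1 gene and more negative for 3. Among CDK inhibitors and arrest genes 10 of 18 rose and 2 fell (0 fell without combined replicate 1). CDKN1A, which encodes p21, went from 25.4 and 27.7 to 132 and 179 (2.55 ± 0.14, adjusted p = 6.46e-09), CDKN1C, which encodes p57, from 16.4 and 17.7 to 89.8 and 79.1 (2.31 ± 0.18, adjusted p = 3.71e-07), and BTG2, an antiproliferative p53 target, from 34.6 and 28.4 to 128 and 123 (1.99 ± 0.21, adjusted p = 1.54e-05). Of 41 DNA replication genes 31 fell and 0 rose, with a median of -0.55, so the shift was broad and small. POLE2, a DNA polymerase epsilon subunit, read 24.3 and 22.3 with X5050 against 10.6 and 9.54 with both drugs (-1.21 ± 0.14, adjusted p = 1.41e-05), and the helicase subunit MCM6 236 and 203 against 120 and 123 (-0.85 ± 0.11, adjusted p = 3.38e-05). PRIM1, the primase subunit, fell by 0.87 and RRM1, the large subunit of ribonucleotide reductase, by 0.78. Of 40 mitosis and spindle genes 26 fell and 0 rose, with 14 falls without combined replicate 1. HMMR, a spindle and hyaluronan-binding protein, read 127 and 131 against 62.6 and 63.4 (-1.03 ± 0.10, adjusted p = 2.82e-06), and CENPA, the centromeric histone, 55.9 and 57.5 against 29.4 and 32.3 (-0.88 ± 0.12, adjusted p = 4.35e-05). Among replication-dependent histone transcripts 6 of 16 tested rose and 1 fell (3 and 4 without X5050 replicate 2), among them H4C3 at 209 and 149 against 449 and 353 (1.17 ± 0.16, adjusted p = 7.39e-05). Only 16 of 42 listed histone genes were matched and tested, and histone genes are near-identical copies.

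Amino acid stress genes split, where 17.5% of all tested genes rose and 12.8% fell. In the list of ATF4 and CHOP targets 20 of 35 fell and 8 rose, with 12 falls without combined replicate 1 and 5 rises without X5050 replicate 1. Among the 20 that fell, ASNS, asparagine synthetase, read 747 and 1184 with X5050 against 348 and 336 (-1.50 ± 0.16, adjusted p = 5.58e-06), and WARS1, tryptophanyl-tRNA synthetase, 488 and 721 against 252 and 243 (-1.29 ± 0.15, adjusted p = 1e-05). Among the 8 that rose, PPP1R15A, which promotes eIF2-alpha dephosphorylation, went from 116 and 130 to 428 and 469 (1.87 ± 0.19, adjusted p = 1.3e-05). Picked after their values were seen, ATF4 itself read 346 and 446 against 654 and 612 (0.68 ± 0.13, adjusted p = 0.000831) and DDIT3, which encodes CHOP, 66.0 and 87.1 against 125 and 111 (0.63 ± 0.14, adjusted p = 0.00356, and 0.10 without X5050 replicate 1). Of 16 serine and one-carbon enzymes 12 fell and 1 rose, with a median of -0.66. MTHFD2, a mitochondrial folate enzyme, read 402 and 610 against 246 and 243 (-1.05 ± 0.15, adjusted p = 6.82e-05), and CBS, the transsulfuration enzyme, 452 and 489 against 249 and 245 (-0.93 ± 0.11, adjusted p = 1.66e-05). X5050 replicate 2 was the higher X5050 library in ASNS, WARS1, MTHFD2 and PSAT1, and in each gene both X5050 libraries lay above both combined libraries.

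Erythroid regulators fell, while the abundant fetal globins did not pass the test. The shares up and down were 0% and 56.25% for erythroid transcription factors and 37.5% and 0% for globins. They were 13.3% and 26.7% for megakaryocyte and platelet genes, against 17.5% and 12.8% of all tested genes. Of 16 erythroid transcription factors 9 fell and 0 rose, with 5 falls without combined replicate 1. NFE2, the p45 globin enhancer factor, read 165 and 113 with X5050 against 67.7 and 78.1 (-0.93 ± 0.15, adjusted p = 0.000234), and GFI1B, a repressor of erythroid and megakaryocyte development, 61.5 and 52.4 against 35.05 and 32.0 (-0.77 ± 0.14, adjusted p = 0.000795). GATA1 read 193 and 166 against 143 and 137 (-0.36 ± 0.12, adjusted p = 0.0267, and 0.14 without combined replicate 2), and MYB, a progenitor factor picked after its values were seen, 213 and 311 against 98.1 and 155 (-1.05 ± 0.24, adjusted p = 0.00645). Of 8 globins 3 rose and 0 fell, with 1 rise without combined replicate 1 or X5050 replicate 2, 4 without combined replicate 2 and 6 without X5050 replicate 1. The risers HBZ, HBD and HBA1 stayed at low levels, HBZ at 0.949 and 0.402 against 2.5 and 2.67. The fetal HBG2 read 2279 and 1029 with X5050 and 2428 and 1673 with both drugs, so the groups overlapped (0.31 ± 0.43, adjusted p = 0.64). Among megakaryocyte and platelet genes 4 of 15 fell and 2 rose (4 rose without X5050 replicate 1, and 1 without combined replicate 1 or X5050 replicate 2), and ITGA2B, the platelet integrin alpha-IIb, read 24.4 and 20.6 against 9.11 and 12.7 (-1.04 ± 0.19, adjusted p = 0.000726).

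**Figure D3:**
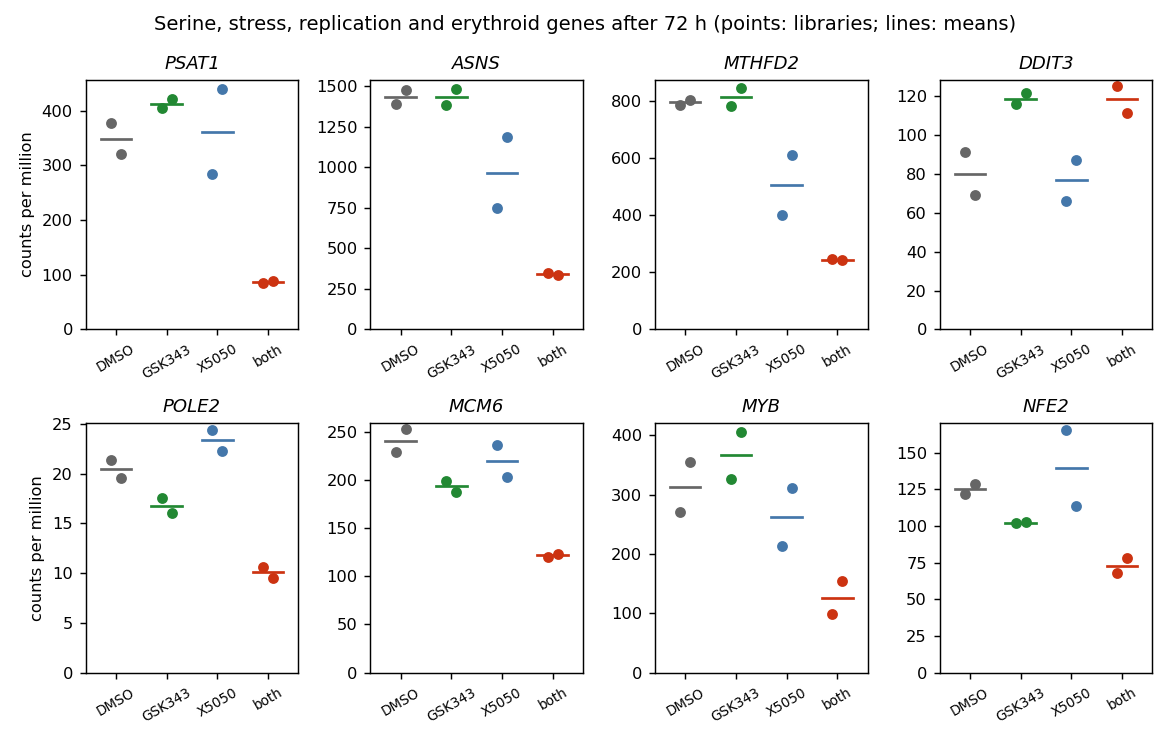
CPM, on linear axes from 0, for 8 genes in DMSO, GSK343, X5050 and both drugs after 72 h (points, libraries; lines, means of 2). Both combined libraries lie below every other library for PSAT1, ASNS, MTHFD2, POLE2, MCM6, MYB and NFE2, while DDIT3 is higher with both drugs (125 and 111) than with X5050 alone (66.0 and 87.1).

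Gene lists tied to the 2 drug targets did not move alike in the main fit. Of 39 listed neuronal REST targets 25 were tested, of which 36% rose and 4% fell, against 17.5% and 12.8% of all tested genes. With GSK343 alone 10 of these 25 rose and 1 fell. The summed level of the 39 genes was 566 to 665 CPM with X5050 and 504 to 567 with both drugs, so the sum did not rise. Of 25 tested neuronal REST targets 9 rose and 1 fell, led by TUBB3, the neuronal beta tubulin, from 1.19 and 0.841 to 16.1 and 12.1 (3.79 ± 0.31, adjusted p = 4.34e-07), and by L1CAM, a neural adhesion molecule, from 6.85 and 9.14 to 54.2 and 60.7 (2.85 ± 0.26, adjusted p = 2.51e-06). Of 29 tested developmental transcription factors known as Polycomb-repressed 6 rose and 3 fell, shares of 20.7% and 10.3% that lie near those of all genes, and 2 rose and 5 fell without X5050 replicate 1, with 3 rises without combined replicate 1 or X5050 replicate 2. The falls included WT1, at 46.0 and 44.8 against 20.0 and 22.9 (-1.08 ± 0.12, adjusted p = 6.69e-06), and the homeobox gene DLX1, at 21.0 and 28.4 against 6.70 and 8.66 (-1.68 ± 0.32, adjusted p = 0.00228). With GSK343 alone 9 of the 29 Polycomb-repressed factors rose and 0 fell. Of 12 PRC2 subunit genes 3 rose and 3 fell, 25% each way against 17.5% and 12.8% of all tested genes. EZH1, the EZH2 paralog, read 47.6 and 54.4 against 83.7 and 88.7 (0.76 ± 0.16, adjusted p = 0.00179), and the accessory subunit PHF1 67.0 and 81.5 against 134 and 191 (1.13 ± 0.15, adjusted p = 5.41e-05).

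Further lists are set beside all tested genes, of which 17.5% rose and 12.8% fell. The shares up and down were 58.1% and 9.68% for the TGF-beta and BMP list and 53.3% and 6.67% for antigen presentation. They were 32.3% and 12.9% for NRF2 and antioxidant genes and 45.5% and 9.09% for heat shock chaperones. For cholesterol genes they were 0% and 30%. Of 31 TGF-beta and BMP pathway genes 18 rose and 3 fell (11 rose without X5050 replicate 1, and 0 fell when either combined replicate was left out), including the decoy receptor BAMBI, at 17 and 17.1 against 44.3 and 46.6 (1.42 ± 0.15, adjusted p = 4.43e-06). Of 15 antigen presentation genes 8 rose and 1 fell (4 rose without X5050 replicate 1). HLA-B, a class I heavy chain gene with close paralogs, read 0.475 and 1.32 against 6.84 and 13.4 (3.51 ± 0.43, adjusted p = 3.19e-05), while the peptide transporter TAP2 fell by 0.76 ± 0.12. Of 31 NRF2 and antioxidant genes 10 rose and 4 fell (1 fell when either combined replicate was left out). The autophagy receptor SQSTM1 went from 663 and 545 to 2455 and 2466 (2.03 ± 0.17, adjusted p = 7.83e-07). Of 22 heat shock chaperones 10 rose and 2 fell, with 6 rises without combined replicate 1 and 5 without X5050 replicate 2, and the co-chaperone BAG3 read 27.8 and 25.7 against 67.0 and 71.0 (1.37 ± 0.16, adjusted p = 1.2e-05). The ferritin genes FTL and FTH1 rose by 1.13 ± 0.13 and 0.94 ± 0.12. Of 30 cholesterol synthesis and uptake genes 9 fell and 0 rose, and ACAT2, a cytosolic thiolase, read 113 and 118 against 54.1 and 55.9 (-1.07 ± 0.11, adjusted p = 5.58e-06).

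**Figure D4:**
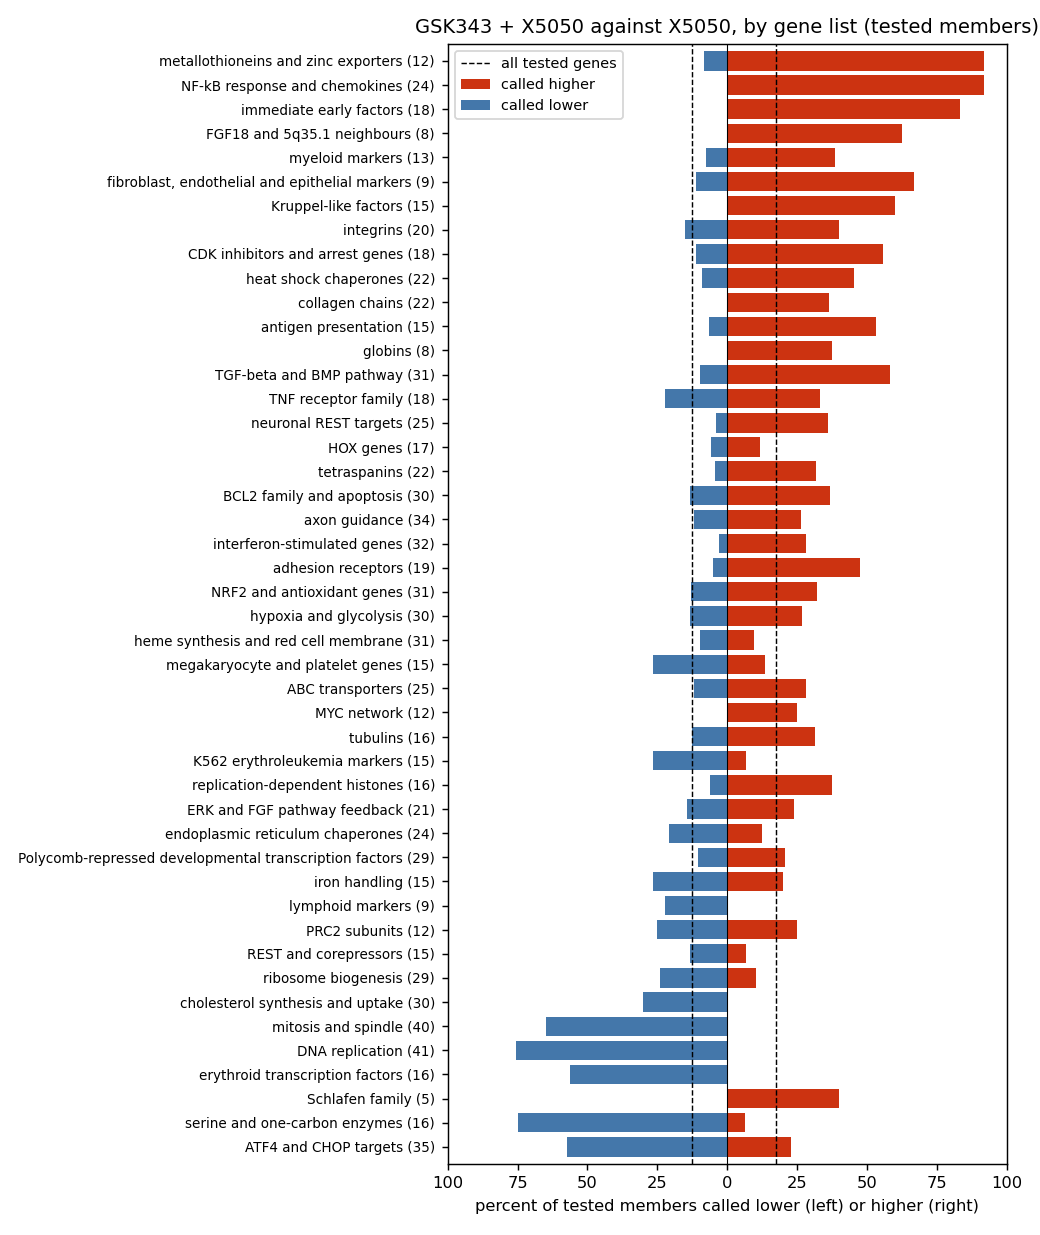
Share of the tested members of each gene list called higher (right) or lower (left) with both drugs than with X5050 alone, with the number tested in parentheses, ordered by median change. Dashed lines mark the shares of all tested genes (17.5% and 12.8%), and the NF-kB and metallothionein lists stand highest at 22 of 24 and 11 of 12.

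The GSK343 response in the presence of X5050 differed from that without it. With GSK343 alone against DMSO, 1754 genes rose (9.12%) and 636 fell (3.31%). Counts for GSK343 alone moved strongly with the DMSO and GSK343 libraries, to 635 up and 104 down without GSK343 replicate 2 and 2321 up and 1966 down without DMSO replicate 1. The 2 contrasts shared 645 risers, which were 36.8% of the genes raised by GSK343 alone and 19.2% of those raised in the presence of X5050. Of the genes raised by GSK343 alone, 122 (6.96%) fell when X5050 was present. The contrasts shared 133 fallers, 20.9% and 5.42% of the respective sets, and 136 genes lowered by GSK343 alone (21.4%) rose when X5050 was present. Of all tested genes 17.5% rose and 12.8% fell in the presence of X5050. The 21.4% lies near the first of these shares and the 6.96% below the second. Across the 19224 genes the Pearson correlation of the 2 log2 changes was 0.34, and 0.25 over the 12578 genes of at least 2 CPM, a description over genes, which are not independent replicates. A direct test of the difference called 1875 genes with a more positive GSK343 effect in X5050 (9.75%) and 1738 with a more negative one (9.04%). Of the 3360 genes raised in X5050, 1565 (46.6%) passed that test, and of the 2456 lowered, 1156 (47.1%) did. Of the 1754 raised by GSK343 alone 612 (34.9%) passed it, and of the 636 lowered 287 (45.1%). Each of these sets was called on a contrast that is part of the difference, so the direction of the difference within a set is largely fixed by how it was chosen. Without DMSO replicate 1 the 2 counts of the difference were 2493 and 2361, without combined replicate 1, 1302 and 994, without GSK343 replicate 1, 1117 and 1356, and without GSK343 replicate 2, 1216 and 1175.

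**Figure D5:**
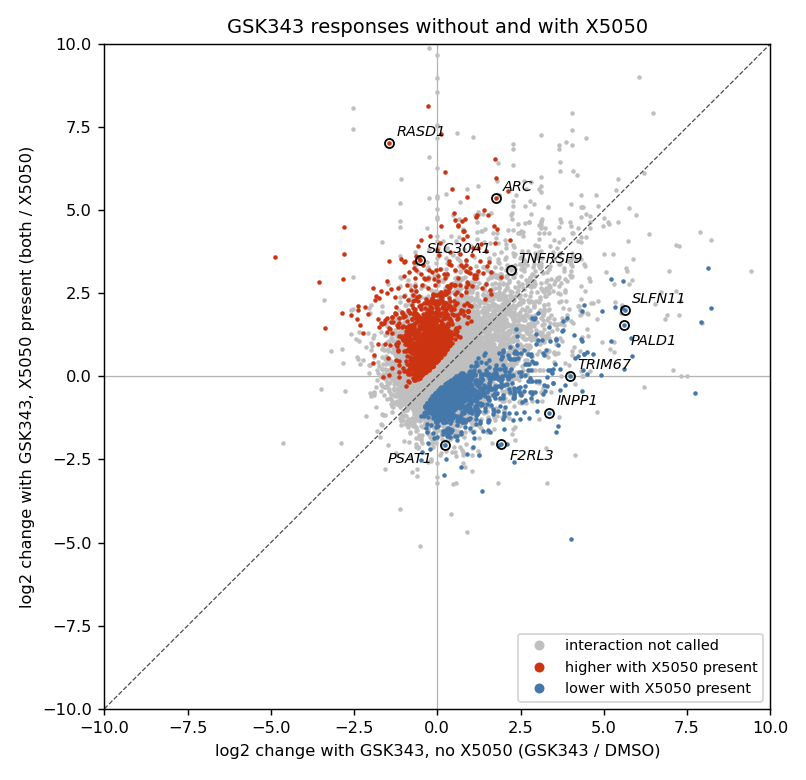
Log2 change with GSK343 in the absence of X5050 (horizontal, GSK343 against DMSO) and in its presence (vertical, both drugs against X5050) for 19224 genes, with red and blue points where the effect was called higher or lower with X5050 present and the dashed line at equal effects. RASD1 and SLC30A1 lie on the upper left, and INPP1 and F2RL3 rise without X5050 and fall with it.

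Among the lists, 11 of 24 NF-kB genes, 12 of 22 heat shock chaperones and 8 of 18 arrest genes had a more positive GSK343 effect in X5050, with 0, 1 and 0 more negative. Of all tested genes 9.75% were more positive and 9.04% more negative. These list counts come from the main fit only. The DMSO libraries differed in the heat shock list, with sums of 6027 and 8497 CPM, and the part of this in the heat shock count was not tested. For TNFAIP2 the effect was 0.09 without X5050, at 54.6 and 52.4 CPM with DMSO and 51.3 and 62.8 with GSK343, and 2.38 with it (difference 2.29, adjusted p = 9.8e-06). Of 35 ATF4 and CHOP targets 16 had a more negative effect and 2 a more positive one, and of 16 serine and one-carbon enzymes 8 and 0. PSAT1 read 377 and 321 with DMSO and 404 and 421 with GSK343, so its effect without X5050 was 0.24 and the difference -2.31 (adjusted p = 1.7e-05). CDKN1A rose by 2.38 without X5050 and 2.55 with it, a difference of 0.17 that did not pass (adjusted p = 0.58). Collagen chains rose in 8 of 22 tested members in each setting, and COL6A2, a collagen VI chain, read 12.1 and 9.64 in DMSO, 57.5 and 72.1 after GSK343 alone, 3.53 and 5.78 in X5050 and 19.5 and 24.5 under both drugs. SLFN11, a DNA damage response gene of the Schlafen family, read 0.165 and 0.0800 in DMSO, 6.48 and 6.02 after GSK343 alone, 0.136 and 0.146 in X5050 and 0.526 and 0.610 under both drugs, a rise of 1.98 ± 0.47 in X5050 that was smaller than the one without it (difference -3.64, adjusted p = 0.003). The platelet genes ITGA2B and RAB27B rose with GSK343 alone (by 1.42 and 1.51) and fell in X5050, with differences of -2.46 and -3.12. WT1 and DLX1 also rose with GSK343 alone, by 0.41 and 1.08, and had differences of -1.49 and -2.76.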

How the data were processed

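RNA-seq counts per gene were deposited by the authors for 12 drug-treated K562 libraries, raw and not normalized. Per the submitters' processing notes and labels, reads were trimmed with Trimmomatic 0.38 and aligned with STAR 2.7.3a to hg19, and the annotation release is not given in the sources used here. The reverse-strand counts were used, since they exceeded the forward-strand counts 8.01 to 9.77 times. The rows for unmapped, multimapping, ambiguous and unassigned reads were left out of library sizes (49.3% to 66.0% of reads fell in genes). Multimapping reads are not counted, which affects near-identical copies.

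Symbols came from a gene name reference, or from GENCODE 29 where that held none (52301 of 57736 IDs had a symbol, 90.6%). edgeR 4.0.16 (R 4.3.3; filterByExpr, TMM, robust quasi-likelihood fit, Benjamini-Hochberg adjustment over 19224 genes) was fitted to all 12 libraries with a mean per group, leaving 6 residual degrees of freedom and a biological coefficient of variation of 0.129. A call is an adjusted p under 0.05. CPM values are counts per 1000000, with TMM-scaled library sizes. Standard errors were derived from the F statistic and are approximate. An exact permutation of 2 against 2 libraries cannot give a p below 0.333. The fit was tested on simulated data.

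Genes named are EZH2, REST, FGF18, the 12 largest rises and falls among called coding genes (mean over the 4 libraries not under 2 CPM, replicates separate), up to 4 called members per list by lowest p, and for the difference of effects the 6 largest each way and up to 2 per list. Others are marked as picked after their values were seen, or are named as members that did not pass. The comparison and the gene lists (1164 of 1199 entries matched) were chosen with earlier results of these data known. DESeq2 1.42.0 size factors and tests, other filters, strands, sample sets, a GC correction, a replicate block and leaving out each library were tried as alternatives. The excision libraries were not used.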

Additional observations from a re-analysis of the deposited data

Results flagged for a closer look

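The GSK343 effect differed between cells with and without X5050 by a direct interaction test in 3613 genes. The 6 largest positive differences among coding genes of at least 2 CPM were those of RASD1 (8.46), DEPP1, a FOXO-responsive autophagy regulator (4.44), HSPA1B (4.16), RGS2, a G protein signalling regulator (4.13), HSPA1A (4.10) and SLC30A1 (4.02). DEPP1 read 2.27 and 3.64 CPM in DMSO, 1.70 and 1.36 after GSK343 alone, 2.61 and 1.97 in X5050 and 32.6 and 18.9 under both drugs. HSPA1A and HSPA1B, the near-identical inducible HSP70 genes, read 47.0 and 54.7 in DMSO replicate 1 but 312 and 392 in DMSO replicate 2, their differences reached an adjusted p of 0.047 each, and each was called in 2 of the 8 fits that left out a library.

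The 6 largest negative differences were those of INPP1, an inositol phosphatase (-4.46), PALD1 (-4.05), TMEM154 (-4.00), TRIM67 (-3.99), F2RL3 (-3.94) and VLDLR (-3.92). INPP1 read 0.454 and 0.680 in DMSO, 4.85 and 6.94 after GSK343 alone, 3.63 and 4.31 in X5050 and 2.06 and 1.68 under both drugs. TRIM67 read 2.93 and 2.24, 26.4 and 56.1, 5.19 and 10.9, and 6.22 and 9.81 in the same order, so its groups overlapped where X5050 was present. TMEM154 and VLDLR were called in 4 and 6 of the 8 fits that left out a library. Each difference was read from libraries of 4 groups, and the comparisons without and with X5050 share no library.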

How the results depend on the processing

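Over the alternatives run for the 184 genes named in the comparison of both drugs with X5050, none changed direction; 158 kept their call without each library in turn and 172 under every other setting, and for the 97 genes named for the difference of effects the numbers were 73 and 87. Calls for both drugs against X5050 numbered 5816 and ranged from 3597 to 4907 without single libraries (2106 to 2460 up, 1347 to 2705 down). For GSK343 against DMSO they ranged from 739 to 4287 (635 to 2321 up, 104 to 1966 down), and for the difference of effects from 2296 to 4854 (1117 to 2493 positive, 994 to 2361 negative). Fitting only the 72 h groups gave 4689 calls for both drugs against X5050, 1832 of them lower. That fit gave 1542 for GSK343 against DMSO, 233 of them lower, and 2314 for the difference, 1020 of them negative. Fitting only the groups compared gave 1118 for GSK343 against DMSO (1036 up, 82 down), and no filter gave 1100 lower. Requiring more than 1 log2 unit left 1692 differences, fewer by construction. Otherwise the cause was not tested. With a replicate block the comparison with X5050 gave 5862 calls (3407 up, 2455 down). It gave 2442 for GSK343 against DMSO and 3685 for the difference. Same-numbered libraries deviated together for X5050 and both drugs (correlation 0.259) and for DMSO and GSK343 (0.449), but 2 pairs each do not establish a pairing, so the block with a GC correction was not run. With 2 libraries per group, small changes of scarce transcripts were not detectable at this depth.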

Other observations

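Small RNA genes were looked at after values were seen. With both drugs against X5050, 21 of 68 tested snRNA genes rose (30.9%) and 1 fell, against 17.5% of all tested genes called higher. No member of the other classes fell, and 6 of 8 scaRNA genes rose, 24 of 112 snoRNA genes (21.4%), 15 of 81 miRNA genes (18.5%) and 10 of 90 genes of the miscellaneous class (11.1%), so the last 3 lie near or below the share of all genes. Without single libraries the rises numbered 11 to 20 for snRNA, 5 to 6 for scaRNA, 11 to 16 for snoRNA, 7 to 11 for miRNA and 2 to 11 for the miscellaneous class. 7SK, the RNA scaffold that holds the elongation kinase P-TEFb inactive, read 8073 and 10110 CPM with X5050 and 17776 and 21007 with both drugs (1.09 ± 0.13, adjusted p = 1.59e-05), and its GSK343 effect was more positive in X5050 than without it by 1.45 (adjusted p = 0.000107). RNU6-2, a copy of the U6 spliceosomal RNA, read 10.4 and 6.98 against 58.8 and 73.3 (2.92 ± 0.25, adjusted p = 2.41e-06), and SCARNA13, a Cajal body RNA, 6.68 and 8.92 against 21.2 and 22.6 (1.49 ± 0.18, adjusted p = 2.24e-05). These RNAs have many copies, and the higher multimapping share of the combined libraries (26.7% and 26.1%, against 19.5% and 19.1%) moved with them, and its part in the rise was not tested.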
